A study of Mus musculus with 9 samples.

Results

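Genes for glycolytic enzyme isoforms and the muscle fructose bisphosphatase gene Fbp2 were followed in hindlimb skeletal muscle of mice. The ages were postnatal days 2, 7 and 14 (P2, P7 and P14). The set was a fixed list of 10 gene symbols: Hk1, Hk2, Pfkm, Aldoa, Pgam2, Eno3, Pkm, Ldha, Ldhb and Fbp2. Each gene was read from its brightest probe set that carries that symbol alone, which gave 9 of the 10 genes, out of 22180 genes measured in all. Aldoa (aldolase A) was not measured, because the array's probe set for it is shared with Aldoart1. Total RNA from 3 samples at each age was labelled and hybridised to 1 array per sample, 9 in all. The labels name no engineered allele and no treatment, and give the strain as mixed at each age. The 3 samples of an age are called biological replicates, but the labels do not say whether each came from 1 pup or from several.

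Glycolysis splits glucose into pyruvate in the cytosol and supplies ATP to fast muscle fibres during short, intense work. Several of its steps are run by isoforms that are encoded by separate genes and are favoured in skeletal muscle, among them Pfkm, Pgam2 and Eno3. Fbp2 encodes an enzyme of the opposite direction: it removes a phosphate from fructose bisphosphate and so undoes the step of phosphofructokinase, which lets muscle rebuild glycogen from lactate. Newborn muscle turns from an immature into a fast, contractile tissue over the first weeks of life, and the question put to the data was how each of these genes moved over that time.

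All values are log2 intensities, so a difference of 1 is a factor of 2. Levels of different genes are not comparable here, because each probe set has its own brightness. The replicates of an age correlated at 0.953 or above across genes, with P2 the most variable age. As a guide to background, 1432 smell and taste receptor genes were used. Their 95th percentile, taken on each gene's highest age mean, was 3.43, and the age means of all 9 genes lay above it. The muscle fibre markers Acta1, Ckm, Mb, Des, Ttn, Myh4, Myh1, Myh2 and Myh7 had age means above that level too.

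Hk2, Pgam2 and Fbp2 are the 3 genes called from P7 to P14 and each has 1 promoter window, so their promoters are shown, from RefSeq on build GRCm38.p6, 250 bases before to 50 bases after the start. Hk2 lies at chr6:82774405-82774704, Pgam2 at chr11:5803747-5804046 and Fbp2 at chr13:62858351-62858650, all on the minus strand and written 5′ to 3′. Capitals mark matches on either strand to the myogenic E-box CAGCTG, the hypoxia response core ACGTG, the GC box GGGCGG or the MEF2 motif.
Hk2: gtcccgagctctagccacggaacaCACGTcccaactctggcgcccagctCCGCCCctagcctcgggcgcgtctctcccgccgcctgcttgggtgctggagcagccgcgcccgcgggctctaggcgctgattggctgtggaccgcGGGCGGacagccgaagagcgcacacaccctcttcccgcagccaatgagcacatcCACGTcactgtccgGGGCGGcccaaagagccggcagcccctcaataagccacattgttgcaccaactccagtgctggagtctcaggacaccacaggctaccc
Pgam2: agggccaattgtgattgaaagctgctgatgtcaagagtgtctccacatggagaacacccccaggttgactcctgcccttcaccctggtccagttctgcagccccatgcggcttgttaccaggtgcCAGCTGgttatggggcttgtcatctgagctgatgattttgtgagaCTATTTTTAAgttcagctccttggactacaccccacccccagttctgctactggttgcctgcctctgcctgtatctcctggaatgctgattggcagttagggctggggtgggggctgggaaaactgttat
Fbp2: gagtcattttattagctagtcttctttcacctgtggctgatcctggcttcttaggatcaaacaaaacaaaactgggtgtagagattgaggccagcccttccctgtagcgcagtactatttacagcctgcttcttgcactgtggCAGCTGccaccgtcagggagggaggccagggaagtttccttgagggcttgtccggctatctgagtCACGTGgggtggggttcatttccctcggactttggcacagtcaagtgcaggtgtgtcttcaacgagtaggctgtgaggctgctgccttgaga

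The Hk2 window held 3 GC box matches and 2 ACGTG matches, both on the opposite strand (CACGT as printed). The Pgam2 window held 1 CAGCTG, starting 125 bases before the start, and 1 MEF2 match, CTATTTTTAA, starting 80 bases before it. The Fbp2 window held 1 CAGCTG, 107 bases before the start, and 1 CACGTG, in which ACGTG matches on both strands. TATAAA was in none of the 3. Over 32851 promoter windows of the same length, 16.3% held CAGCTG, 19.6% ACGTG, 35.7% GGGCGG, 13.6% TATAAA and 3.19% the MEF2 motif. CAGCTG was thus in the windows of both Pgam2, which rose, and Fbp2, which fell, and whether any match acts on these genes was not tested. Of the other genes with 1 window, Eno3 held 1 CAGCTG and Ldhb no match to any of the 5 motifs. Measured genes with more than 1 window held matches too. For Ldha 1 window held 5 ACGTG and 3 GC box matches and the other none. For Hk1 1 window held 2 ACGTG and the other no match. For Pkm 1 window held 1 CAGCTG and 1 GC box match and the other 2 ACGTG. The Pfkm windows held 3, 1, 0 and 0 ACGTG matches.

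Between P2 and P14 most of the set moved. Pgam2, Pkm, Pfkm, Hk2, Ldha and Eno3 rose and Fbp2 fell, while Hk1 and Ldhb were not called. Limma called 7 of the 9 genes at an adjusted p under 0.05, 6 higher and 1 lower at P14. Among all 22180 genes 11.0% were called, 6.63% higher and 4.40% lower. In a fit on the 13234 genes above the receptor level 22.2% were called. The split of all genes depended on the scaling, with 1470 higher and 977 lower as deposited, against 1216 higher and 1318 lower after cyclic loess. The median change of the 9 genes was 0.73, that of all genes was 0.01 and that of genes above the receptor level was 0.07. After cyclic loess the change of each of the 9 genes was lower. It was 0.96 instead of 1.18 for Pgam2, 0.75 instead of 0.97 for Pkm and -0.86 instead of -0.66 for Fbp2. The 3 P14 arrays lay all above or all below the 3 P2 arrays for 7 of the 9 genes, against 28.7% of all genes.

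**Figure D1:**
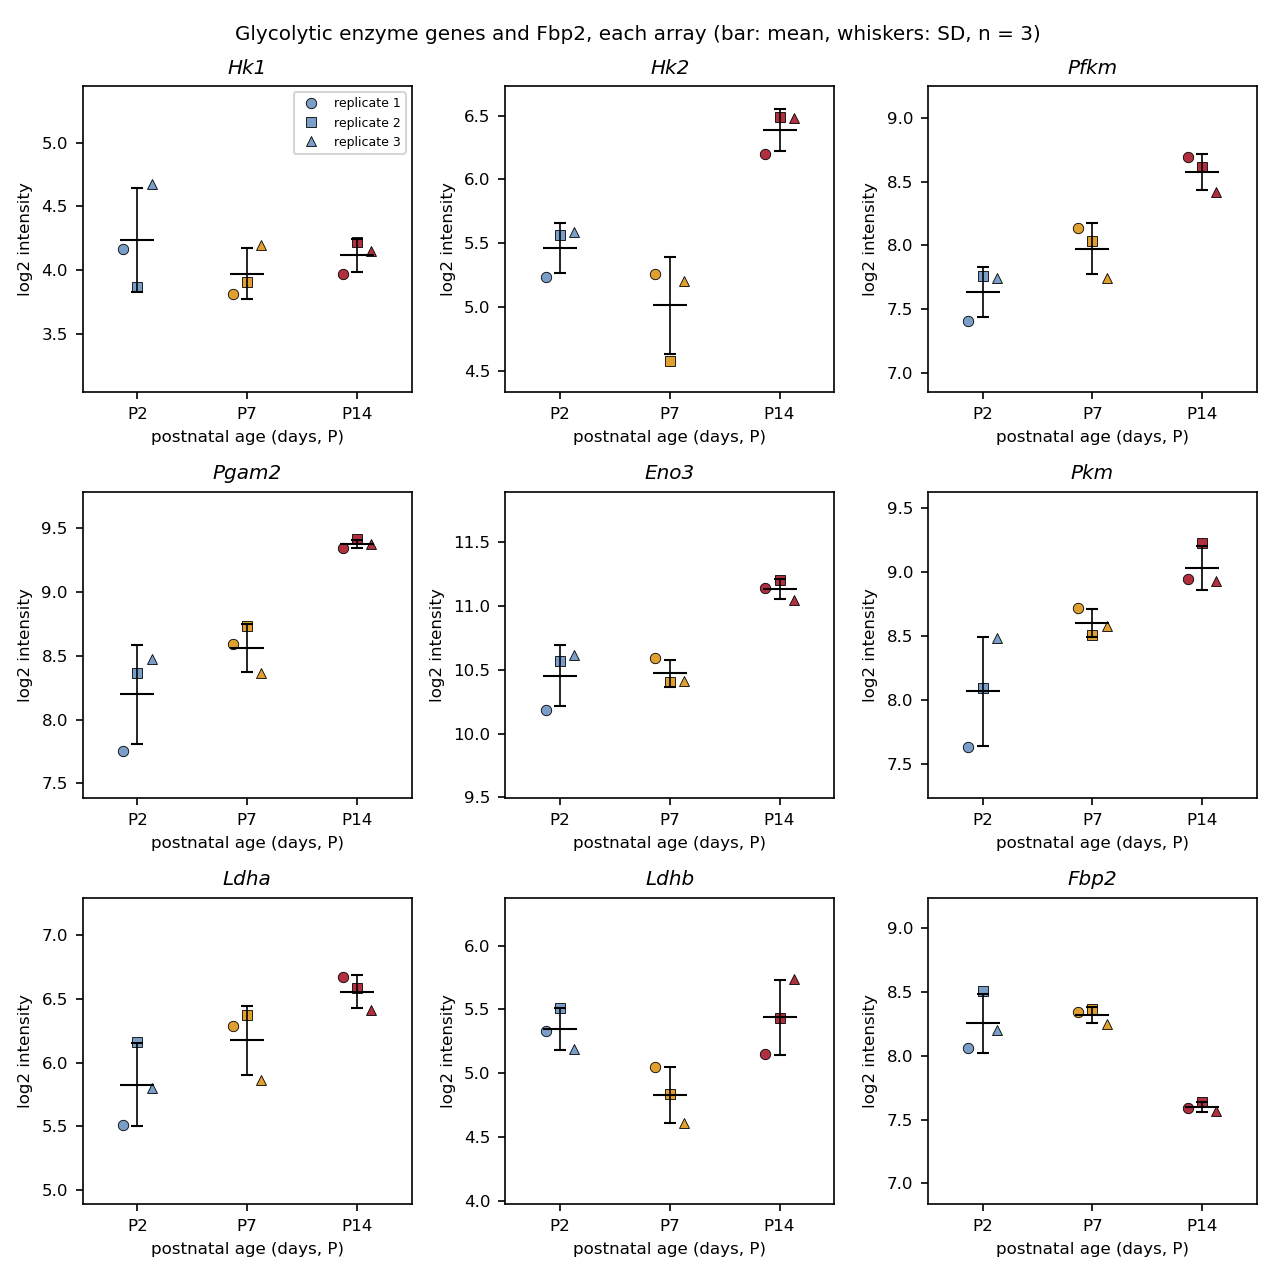
Log2 intensity (vertical axis) of the 9 measured genes on each array at P2, P7 and P14 (horizontal axis), with a panel per gene spanning the same range of log2 units. Points are arrays, shaped by replicate number, and bars and whiskers give the mean and SD of 3 arrays. Pgam2 averaged 9.38 at P14 and 8.20 at P2, and Fbp2 averaged 7.60 at P14 and 8.26 at P2.

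The first step of the pathway, the trapping of glucose as its phosphate, is run by hexokinases. Hk2 encodes the insulin-responsive hexokinase of muscle and fat. It read 5.24, 5.56 and 5.59 at P2, then 5.26, 4.58 and 5.20 at P7, and 6.20, 6.49 and 6.48 at P14. Every P14 array was above every earlier array, and the P7 arrays overlapped those of P2, with P7 replicate 2 the lowest of all 9. From P2 to P14 Hk2 rose 1.90-fold (log2 0.93 ± 0.20, SE; limma adjusted p = 0.00913). Against P7 the log2 rise at P14 was 1.38 ± 0.20 (limma adjusted p = 0.00171), the 49th highest change of 22180 genes.

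Hk1 encodes the hexokinase found in most tissues. Its values were 4.16, 3.87 and 4.67 at P2, 3.81, 3.91 and 4.20 at P7, and 3.97, 4.22 and 4.15 at P14. The 3 ages overlapped throughout. The P14 over P2 change was -0.12, with a 95% interval of -0.56 to 0.33 (limma adjusted p = 0.782), so a fall of up to 0.56 or a rise of up to 0.33 fits within the error. The sign turned without P2 replicate 3, the highest array, where the change was 0.10.

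The committed step of glycolysis is set by phosphofructokinase, and its muscle form is encoded by Pfkm. Pfkm read 7.41, 7.76 and 7.74 at P2, 8.14, 8.03 and 7.75 at P7, and 8.69, 8.61 and 8.42 at P14. The P14 arrays stood above all others, and P7 replicate 3 lay within the range of P2. Pfkm rose 1.92-fold from P2 to P14 (log2 0.94 ± 0.18, SE; limma adjusted p = 0.00349). The P14 over P7 change of 0.60 was not called (adjusted p = 0.101), although 2 of 18 alternative settings called it.

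Fbp2 works against Pfkm, and its transcript fell. It read 8.06, 8.51 and 8.20 at P2, 8.35, 8.36 and 8.25 at P7, and 7.59, 7.64 and 7.56 at P14. The 3 P14 arrays (SD 0.04) lay below all 6 earlier arrays, while P2 and P7 overlapped. Fbp2 was 1.65-fold lower at P14 than at P7 (log2 -0.72 ± 0.17, SE; limma adjusted p = 0.0360) and 1.58-fold lower than at P2 (-0.66 ± 0.17; 0.0197). Leaving out a single P7 or P14 array, whichever it was, ended the call against P7 (adjusted p 0.0871 to 0.144), as did Xist as a covariate (0.0503), yet the log2 change stayed between -0.86 and -0.70 over 18 alternatives. The fall against P2 lost its call without P2 replicate 2 (0.0531) or without P14 replicate 1, 2 or 3 (0.0623 to 0.0744).

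Later steps of the pathway rearrange and dehydrate phosphoglycerate. Pgam2 encodes the muscle form of phosphoglycerate mutase. It read 7.76, 8.37 and 8.47 at P2, 8.60, 8.73 and 8.36 at P7, and 9.35, 9.41 and 9.38 at P14. The P14 arrays were tightly grouped (SD 0.03) and stood clear of both younger ages. Pgam2 had the largest P14 over P2 change of the 9 genes, 2.26-fold (log2 1.18 ± 0.20, SE; limma adjusted p = 0.00155). Its rise from P7 to P14 was 0.81 ± 0.20 (adjusted p = 0.0469). That call ended when a single P7 or P14 array was left out (0.0797 to 0.179), after cyclic loess (0.0851) and with Xist as a covariate (0.0675).

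Eno3 encodes beta-enolase, the enolase of adult muscle. It read 10.18, 10.56 and 10.62 at P2, 10.60, 10.40 and 10.42 at P7, and 11.14, 11.21 and 11.05 at P14. P7 and P2 overlapped, with means of 10.47 and 10.45, and every P14 array was higher. Eno3 rose 1.60-fold from P2 to P14 (log2 0.68 ± 0.17, SE; limma adjusted p = 0.0193). This call ended after cyclic loess, where the change was 0.42 (adjusted p = 0.113), without P2 replicate 1 (0.0795) and without P14 replicate 1, 2 or 3 (0.0510 to 0.0838). The P14 over P7 change of 0.66 was just short of a call (0.0598), and 6 of 18 alternatives called it.

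Pyruvate kinase closes the pathway, and Pkm encodes its form in muscle and most other tissues. One value covers the gene, so the splice forms M1 and M2 were not told apart. Pkm read 7.63, 8.09 and 8.48 at P2, 8.72, 8.51 and 8.58 at P7, and 8.94, 9.23 and 8.93 at P14. The ages formed 3 steps that did not overlap, and P2 had the widest spread (SD 0.43). Pkm rose 1.95-fold from P2 to P14 (log2 0.97 ± 0.21, SE; limma adjusted p = 0.00790). Neither P7 over P2 (0.53, adjusted p = 0.301) nor P14 over P7 (0.43, adjusted p = 0.359) was called.

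Lactate dehydrogenase interconverts pyruvate and lactate. Ldha encodes the muscle subunit, which favours lactate formation, and Ldhb the heart subunit, typical of oxidative tissue. Ldha read 5.51, 6.17 and 5.80 at P2, 6.29, 6.37 and 5.86 at P7, and 6.67, 6.59 and 6.42 at P14. All P14 arrays were above all earlier ones, with P2 and P7 overlapping. Ldha rose 1.66-fold from P2 to P14 (log2 0.73 ± 0.20, SE; limma adjusted p = 0.0313). The call ended after cyclic loess (0.0848), without P2 replicate 1 (log2 0.57, adjusted p = 0.127), without P2 replicate 3 (0.0636) and without P14 replicate 1, 2 or 3 (0.0601 to 0.120).

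Ldhb was lowest at P7. It read 5.33, 5.51 and 5.19 at P2, 5.05, 4.83 and 4.61 at P7, and 5.15, 5.43 and 5.74 at P14. The P7 arrays lay below all 6 others, and P14 overlapped P2. No pair of ages was called: P7 over P2 was -0.51 ± 0.19 (SE; limma adjusted p = 0.287), P14 over P7 was 0.61 ± 0.19 (0.129) and P14 over P2 was 0.10 ± 0.19 (0.817). The last had a 95% interval of -0.32 to 0.51, and its sign turned to -0.05 without P14 replicate 3.

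**Figure D2:**
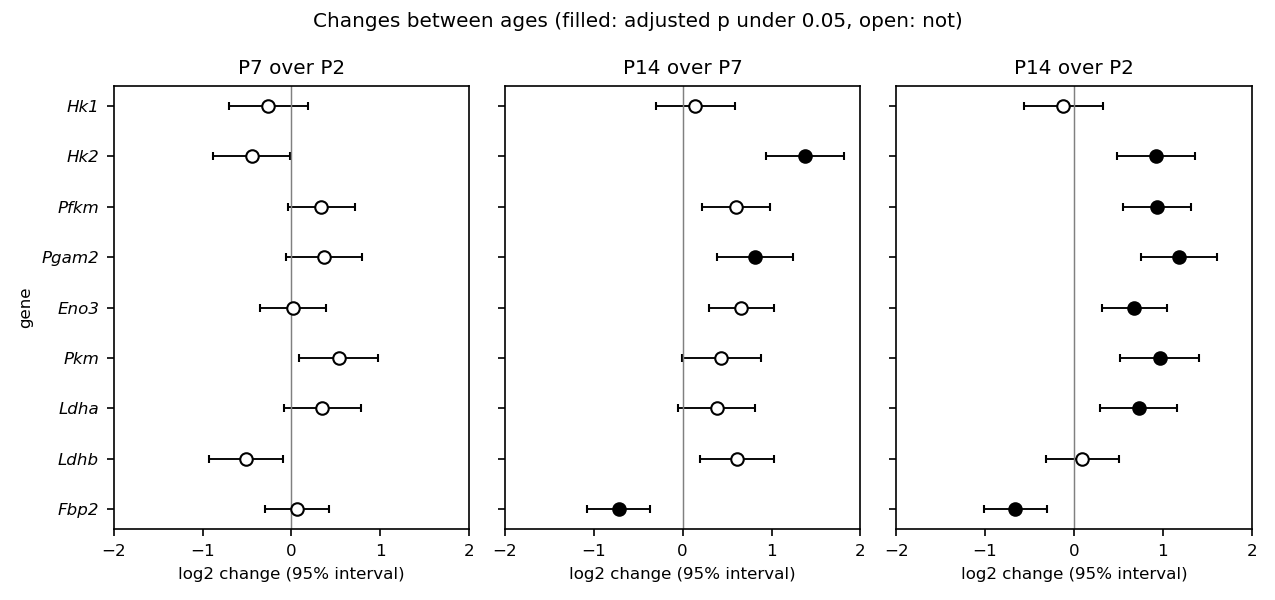
Log2 changes (horizontal axis, with 95% intervals from limma) of the 9 measured genes (vertical axis) for P7 over P2, P14 over P7 and P14 over P2. Filled points have an adjusted p under 0.05: there are 0 for P7 over P2, 3 for P14 over P7 and 7 for P14 over P2.

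From P7 to P14 limma called 3 of the 9 genes, with Hk2 and Pgam2 higher and Fbp2 lower. Of all genes 2.43% were called, 1.72% higher and 0.703% lower (382 and 156 genes as deposited, 240 and 213 after cyclic loess), and 6.18% in the fit on genes above the receptor level. The P14 arrays lay all above those of P7 for 7 genes and all below for Fbp2, against 23.9% of all genes in either direction. The exception was Hk1. The median change of the 9 genes was 0.60, against 0.02 for all genes and 0.085 for genes above the receptor level. Cyclic loess lowered the change of each of the 9 genes here too, to 1.24 for Hk2 and 0.30 for Pkm. P14 over P7 and P14 over P2 share the P14 arrays, so their calls are not independent of each other.

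From P2 to P7 limma called 0 of the 9 genes, with 3 at an unadjusted p under 0.05 (Hk2, Pkm and Ldhb), and each of the 18 alternatives also called 0. Of all 22180 genes 0.329% were called, and 2847 had an unadjusted p under 0.05. The P7 arrays were all above those of P2 for Pkm and all below for Ldhb, so 2 of 9 genes did not overlap, against 15.2% of all genes. The change of Eno3 was 0.02, with a 95% interval of -0.35 to 0.38, and that of Fbp2 was 0.06 (-0.30 to 0.42).

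Whether a gene changed by a different amount in the later interval than in the earlier one was tested directly, as P14 minus P7 less P7 minus P2. The later interval is the longer one, and the difference was not scaled to length, so it does not compare daily rates. Limma called 0 of the 9 genes, against 0.194% of all genes called. At an unadjusted p under 0.05 there were 4 of the 9 genes and 1801 of all 22180. Hk2 came closest, with a negative P7 over P2 change (-0.45) and a positive P14 over P7 change (1.38). Its difference between intervals was 1.82 ± 0.35 (SE; limma adjusted p = 0.0607). Of 17 alternatives 3 called it: array medians centred (0.0479), the fit on genes above the receptor level (0.0338) and a trended, robust variance (0.0252). Without P7 replicate 2, the lowest array for Hk2, the difference was 1.39 (limma adjusted p = 0.288). After cyclic loess it was 1.65 (0.117). Ldhb had a difference of 1.12 (adjusted p = 0.310), Fbp2 one of -0.78 (0.488) and Eno3 one of 0.64 (0.608).

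The isoforms of a step were then set against each other on the same array. The difference of 2 probe sets at 1 age has no meaning of its own, but its shift between ages shows unequal change, and it is given without a test. Pgam2 minus Pgam1, the muscle over the brain and general form of the mutase, was 1.60, 1.96 and 1.64 at P2, 2.36, 2.60 and 2.29 at P7, and 3.25, 3.18 and 3.25 at P14. The 3 ages did not overlap, and the shift from P2 to P14 was 1.50, or 2.82-fold. Pgam1 itself averaged 6.15 ± 0.07 at P14 and 6.47 ± 0.34 at P2 (SD, n = 3), not called.

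Pfkm minus Pfkl, the muscle over the liver form of phosphofructokinase, averaged 2.97 ± 0.24 at P2, 4.05 ± 0.18 at P7 and 4.26 ± 0.22 at P14 (SD, n = 3). The P7 and P2 arrays did not overlap, and P14 overlapped P7. Pfkl itself averaged 4.66 ± 0.23, 3.92 ± 0.35 and 4.32 ± 0.15 at P2, P7 and P14 (SD, n = 3). Its P7 over P2 change was -0.74 with all P7 arrays below P2 (limma adjusted p = 0.133, not called), and that of Pfkm was 0.34 with overlap, so Pfkl made up the larger part of that shift. Against the platelet form, Pfkm minus Pfkp averaged 3.07 ± 0.33, 3.50 ± 0.39 and 4.10 ± 0.17 at P2, P7 and P14 (SD, n = 3), and only P14 stood clear of the other ages. Hk2 minus Hk1 averaged 1.23 ± 0.41 at P2, 1.04 ± 0.39 at P7 and 2.27 ± 0.05 at P14 (SD, n = 3), with P14 above both.

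Ldha minus Ldhb was 0.19, 0.65 and 0.62 at P2, 1.24, 1.54 and 1.26 at P7, and 1.52, 1.16 and 0.68 at P14. The difference was above P2 at both later ages, but P14 spread over more than the P7 range, and P14 replicate 3 lay close to P2. Fbp2 minus Pfkm, the pair that runs the same step in opposite directions, was 0.65, 0.76 and 0.46 at P2, 0.21, 0.33 and 0.50 at P7, and -1.10, -0.97 and -0.85 at P14. The P14 arrays lay apart from all others, and the shift from P2 to P14 was -1.60. Fbp2 could not be set against the liver form Fbp1, which was under the receptor level, and the partners Eno1 and Aldoa had no single-symbol probe set.

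**Figure D3:**
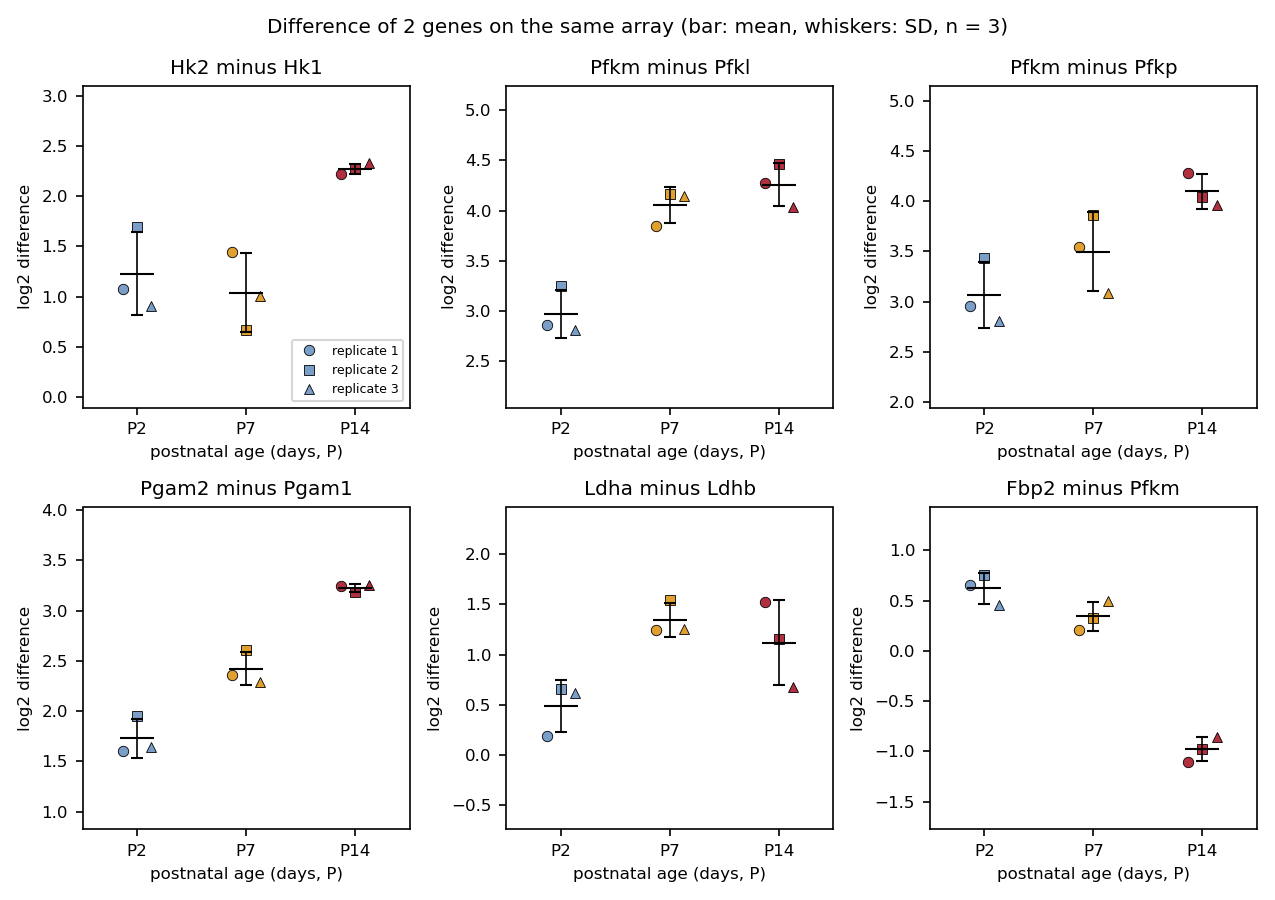
Log2 difference between 2 genes on the same array (vertical axis) at P2, P7 and P14 (horizontal axis) for 6 pairs; points are arrays, bars and whiskers the mean and SD of 3 arrays. Pgam2 minus Pgam1 averaged 1.73, 2.42 and 3.23 at P2, P7 and P14, and Fbp2 minus Pfkm averaged 0.62, 0.35 and -0.98.

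Of 40 other genes of glycolysis, gluconeogenesis and the fate of pyruvate, 33 were measured. From P2 to P14, 13 rose, 0 fell and 20 were not called, against 6.63% of all genes called higher and 4.40% lower. At an unadjusted p under 0.05 there were 19 of the 33, against 5386 of all 22180 genes. The median change was 0.17. The 7 genes at or below the receptor level (Hk3, Hkdc1, Fbp1, Gapdhs, Pgk2, Ldhc and G6pc) were among those not called. Of the genes for the triose steps, Pgk1 (phosphoglycerate kinase) rose 2.33-fold and Tpi1 (triosephosphate isomerase) 1.89-fold, while Gapdh, named after its value was seen, had a log2 difference of 0.44 and was not called (limma adjusted p = 0.0917). The ages of Pgk1 did not overlap, with 8.57, 8.84 and 8.76 at P2, 9.32, 9.43 and 9.18 at P7, and 9.91, 10.02 and 9.89 at P14. Bpgm, which makes the side product bisphosphoglycerate, rose 1.95-fold.

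Of the 4 measured regulators of the phosphofructokinase step 3 rose, and Pfkfb2 was not called. Pfkfb3 and Pfkfb4, which make and remove the activator of phosphofructokinase, rose 2.09-fold and 2.11-fold. Tigar, a phosphatase that removes that activator, rose 2.13-fold. The 4 largest rises of the list were those of Gpd1, Gpd2, Pdk4 and Mpc1. Gpd1 and Gpd2, the cytosolic and mitochondrial enzymes of the glycerol phosphate shuttle, rose 3.36-fold and 3.19-fold. Over 18 alternatives the log2 change ranged from 1.21 to 2.02 for Gpd1 and from 1.47 to 1.81 for Gpd2. Which of them rose more thus depended on the setting. Gpd1 and Mpc1 each had 2 probe sets, of which the brighter was read. The mitochondrial pyruvate carrier subunit Mpc1 rose 2.94-fold and Pdk4, a kinase that shuts pyruvate dehydrogenase, 3.03-fold. The lactate exporter Slc16a3 (1.97-fold), its chaperone Bsg (1.89-fold) and the phosphatase subunit G6pc3 (1.97-fold) also rose.

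From P7 to P14 limma called 3 of the 33, Gpd2 (log2 0.99 ± 0.19, SE; adjusted p = 0.0129), Tigar (0.97 ± 0.22; 0.0306) and Bpgm (0.78 ± 0.18; 0.0314), all higher, against 1.72% of all genes called higher. From P2 to P7 it called 0, and 8 of the 33 had an unadjusted p under 0.05, against 2847 of all 22180 genes. The P14 over P2 call held under all 18 alternatives for Pgk1, Bpgm, Pfkfb3, Pfkfb4, Tigar, Gpd1, Gpd2 and Mpc1. It was lost for Tpi1 without P2 replicate 1 or 2 or P14 replicate 1 or 2 and after cyclic loess (adjusted p up to 0.0976). It was lost for G6pc3 without P14 replicate 1 (0.0521), for Bsg without P2 replicate 1 or P14 replicate 1 (up to 0.0579) and for Slc16a3 without P2 replicate 1 or P14 replicate 1 or 2 (up to 0.0811). Pdk4 lost it without P2 replicate 1 or 3 or any P14 array and with a trended, robust variance (up to 0.107), and its P2 arrays read 7.02, 9.29 and 7.34. Its log2 change of 1.60 became 1.17 without P2 replicate 1 and 2.30 without P2 replicate 2. From P7 to P14 the call of Gpd2 ended without P14 replicate 1, P14 replicate 2 or P7 replicate 1 (highest adjusted p = 0.0758), and that of Tigar without P7 replicate 2 or 3 or any P14 array (up to 0.122). The Bpgm call ended without P7 replicate 1 or 3 or any P14 array, after cyclic loess and with Xist as a covariate (up to 0.154).

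**Figure D4:**
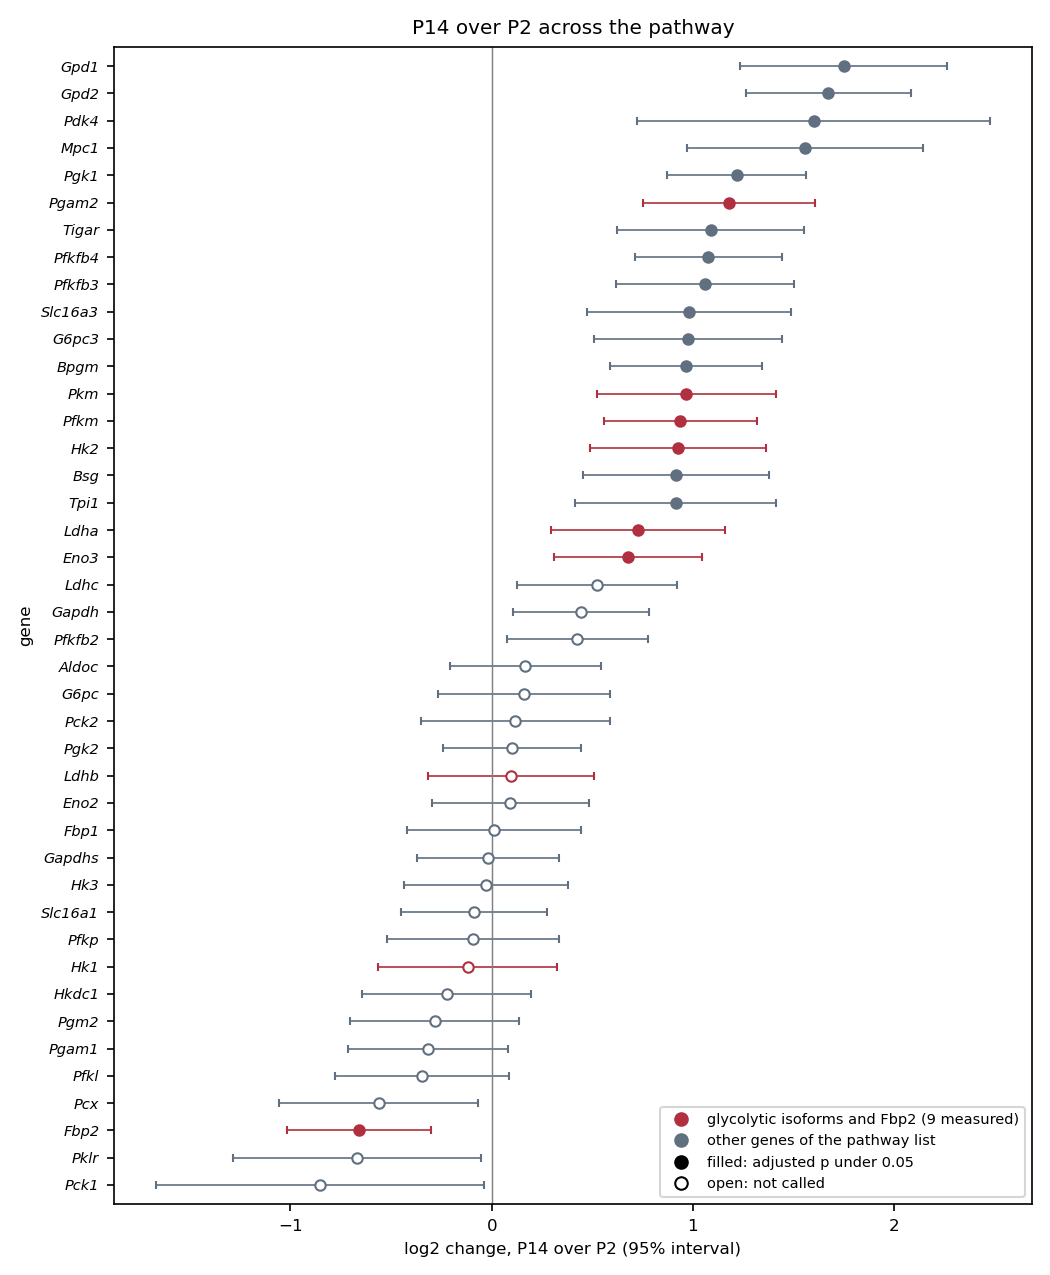
Log2 change from P2 to P14 (horizontal axis, with 95% intervals from limma) of the 9 measured genes and 33 other pathway genes (vertical axis, ordered by change). Filled points have an adjusted p under 0.05; Gpd1 is highest at 1.75, and Fbp2, at -0.66, is the only filled point below 0.

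Most fast fibre markers and the markers of dividing cells also moved between P2 and P14, and the slow fibre markers were not called. In whole muscle RNA, more cells of a type and more RNA per cell cannot be told apart. The 9 fast fibre markers averaged log2 10.65 to 10.70 at P14, 9.97 to 10.17 at P7 and 7.70 to 9.19 at P2. Limma called 7 of the 9 higher from P2 to P14, against 6.63% of all genes. From P2 to P7 it called 4 of the 9 higher, against 0.329% of all genes called. From P7 to P14 it called 0 of the 9, against 2.43% of all genes called. All 9 changes were still positive, with a median of 0.51. For all 9 every P14 array was above every P7 array, against 23.9% of all genes in either direction. The lack of calls therefore does not show that these markers had stopped rising. In that interval 5 of the 9 had an unadjusted p under 0.05, against 3248 of all 22180 genes. Of the 6 slow fibre markers 0 were called by limma for any pair of ages (0 at an unadjusted p under 0.05), with mean levels of 5.67 to 6.55 at P14 and 5.99 to 6.23 at P2. All 5 measured markers of dividing cells (of 6 listed) fell from P2 to P14, with mean levels of 3.90 to 4.21 at P14 and 5.03 to 5.64 at P2. For the 8 macrophage and 7 endothelial markers limma called 0 between P2 and P14, with 1 and 4 at an unadjusted p under 0.05. It called 1 of 6 fibroblast and 2 of 5 adipocyte markers lower. Over all 22180 genes 4.40% were called lower from P2 to P14, and 5386 had an unadjusted p under 0.05. The part of these shifts in the changes of the glycolytic genes was not tested.

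The P2 arrays differed among themselves in a way that touched the set. P2 replicate 1 was the lowest of the 3 P2 arrays for 7 of the 9 genes, all but Hk1 and Ldhb, against 32.9% of all genes. It was also lowest in the mean of the fast fibre markers, at 7.70 against 8.66 and 9.19 in replicates 2 and 3. Single markers differed: Tnnt3 read 10.69, 10.62 and 10.49 and Mylpf 9.53, 9.35 and 9.71 in replicates 1, 2 and 3. The other fast fibre markers were lowest in replicate 1. Without this array the P14 over P2 change was 0.96 for Pgam2, 0.82 for Pfkm, 0.81 for Hk2, 0.75 for Pkm and -0.76 for Fbp2, all still called, while Eno3 and Ldha lost their calls as stated with each gene.

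The genes whose pattern was most like a given gene were ranked by Pearson's r over the 9 arrays, among 10555 genes above the median level. The 9 arrays fall into 3 ages, which any gene with an age pattern shares, so r is a description. Fbp2 was most like Col6a6, a collagen VI chain gene, at r = 0.986, followed by the microRNA genes Mir758 (0.977), Mir541 (0.976) and Mir495 (0.974) and the ubiquitin ligase gene Rnf217 (0.968). Col6a6 averaged 6.83 at P2, 6.84 at P7 and 6.15 at P14, while Mir758 averaged 7.63, 7.89 and 5.58. From P7 to P14 limma called Mir758 (log2 -2.31), Mir541 (-2.11) and Mir495 (-3.32) lower, each a larger fall than the -0.72 of Fbp2. Col6a6 (log2 -0.69, limma adjusted p = 0.0504) and Rnf217 (-0.65, 0.0790) were not called. Hk2 was most like Lcmt1 (r = 0.981), Fastkd1 (0.973), Plekhm2 (0.965), Uap1 (0.963) and Mtmr14 (0.961). Of these, Uap1, an enzyme of the hexosamine pathway, was called from P7 to P14 (log2 0.73, limma adjusted p = 0.0411). Ldhb was most like Igbp1 (0.947), Fam234a (0.933), Chodl (0.930), Papss2 (0.914) and Rab3ip (0.911), none of them called from P7 to P14 (limma adjusted p 0.115 to 0.359).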

How the data were processed

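The authors deposited log2 intensities of 41345 probe sets for the 9 arrays. RMA and Partek are named, without version or settings, in the submitters' processing notes; the log2 base follows from RMA. No genome build is stated in the labels. Array medians were 3.29 to 3.36, with no missing value. Precision is limited by having 3 arrays per age.

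Probe sets with 1 symbol (23521) were kept, the brightest per gene over the 9 arrays, giving 22180 genes without a filter. Symbols came from the platform's annotation; list symbols were matched to it directly or through RefSeq GRCm38.p6 names. The fit used limma 3.58.1 (R 4.3.3), with 1 mean per age, all arrays sharing 1 spread, empirical Bayes, two-sided, Benjamini-Hochberg adjustment over all genes, called under 0.05. Since separate animals are not stated, p-values reflect only how far these samples differ, which may be partly technical. The fit was also run on simulated data that gave each gene the same spread at every age. That run cannot check whether 1 shared spread suits these arrays.

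The members and lists were chosen with earlier results of these data known. The text names all members, pathway genes called for any pair of ages, isoform partners, and the 5 genes most like Fbp2, Hk2 and Ldhb; Gapdh, Pfkfb2, Pklr and the 7 dim pathway genes were added after their values were seen. Alternatives covered scaling, dim genes, probe sets, variance model, array weights, ages in the fit, the replicate number as a block, Xist and each left-out array.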

Additional observations from a re-analysis of the deposited data

How the results depend on the processing

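Of the recomputed changes of the 9 genes, 580 kept their direction and side of the threshold, 32 lost a call, 11 gained one and 16 turned sign, none of the 16 in a called result. The replicate numbers showed no sign of pairing the samples. Deviations from the age means correlated at -0.03 to 0.06 between same-numbered samples of different ages, and at -0.08 to 0.11 between differently numbered ones. Such correlations over all genes cannot exclude a pairing. With the replicate block limma called 61 genes for P7 over P2, 458 for P14 over P7, 2320 for P14 over P2 and 33 for the interval difference, and of the members 0, 1, 7 and 0; Pgam2 (adjusted p = 0.0601) and Fbp2 (0.0519) lost their P14 over P7 calls with the block.

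The P7 over P2 count of 73 genes became 173 on genes above the receptor level, 159 with a trended, robust variance, 12 with only those 2 ages fitted, 35 with Xist as a covariate and 11 to 206 with 1 array left out. The P14 over P7 count of 538 became 818 on genes above the receptor level, 1221 with array weights, 1051 with only those 2 ages fitted and 214 to 794 with 1 array left out. The P14 over P2 count of 2447 ranged from 1373 to 2611 and the interval count of 43 from 18 to 44 with 1 array left out, and the interval count was 24 with Xist. Members called from P7 to P14 were 3, but 5 with a trended, robust variance or array weights, 1 with Xist or the replicate block, and 1 to 4 with 1 array left out. Members called from P2 to P14 were 7, and 4 to 7 with 1 array left out. Members called for the interval difference were 0, but 1 (Hk2) with array medians centred, on genes above the receptor level or with a trended, robust variance.

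The sign turned in these uncalled changes. Eno3 P7 over P2 was -0.00012 with array medians centred, -0.13 after cyclic loess, -0.034 with Xist and -0.12 to 0.10 with 1 array left out. With 1 array left out Fbp2 P7 over P2 ranged from -0.037 to 0.19, Hk1 P14 over P2 from -0.30 to 0.10 and Ldhb P14 over P2 from -0.054 to 0.24. The interval difference of Pkm was 0.095 with Xist and -0.31 to 0.12 with 1 array left out, and that of Ldha -0.13 after cyclic loess, -0.019 with Xist and -0.28 to 0.23 with 1 array left out. The cause was not tested for any of these.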

Other observations

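Pklr, the pyruvate kinase gene of liver and red blood cells, read 5.05, 4.03 and 3.82 at P2, 3.79, 3.13 and 3.68 at P7, and 3.79, 3.83 and 3.28 at P14. No pair of ages was called. The 3 measured erythroid markers (of 9 listed) had mean levels of 4.99, 2.97 and 5.22 on the P2 arrays, 3.87, 3.50 and 4.28 at P7, and 2.85, 2.95 and 2.76 at P14. P2 replicate 2 was near the P14 arrays for these markers, and P2 replicate 1 was the highest array for Pklr. P2 replicate 3 had the highest mean of these markers but the lowest P2 value of Pklr. Limma called 2 of the 3 markers lower from P2 to P14, against 4.40% of all genes. The age means of Epb42 and Rhag, among these markers, were at or below the receptor level at P7 and P14.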
